A study of Mus musculus with 4 samples.

Results

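Ring1b was mapped by chromatin immunoprecipitation followed by sequencing in C3H10T1/2 cells, mesenchymal progenitors derived from C3H mouse embryos, and the regions described here are its broad domains. They were chosen by width alone, as all regions of the deposited table from 8200 to 200000 bp, and numbered 1214 of 6371 regions (19.1%). The table lists regions associated with peaks of the wild-type library, so a domain bound only in the other cells would not be in it. Cells stably expressed histone H3.3 carrying a FLAG-HA tag, either wild type (WT) or with lysine 36 replaced by methionine (K36M), and both lines were at passage 10 to 15. The tag, the cell line and the antibody were shared by both groups. The labels say nothing of the promoter of the transgene or of clones. There was 1 Ring1b library for each form of H3.3, and no values of the inputs were used. No test of K36M against WT was therefore possible, and every interval below covers counting error only.

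Ring1b is the catalytic E3 ubiquitin ligase subunit of Polycomb repressive complex 1, which ubiquitylates histone H2A and compacts chromatin at silenced developmental genes. Such complexes usually sit at CpG islands and can spread over whole gene clusters as broad domains. Methylation of H3 lysine 36 is a mark of active chromatin that hinders the methylation of lysine 27 by Polycomb repressive complex 2, and H3.3 K36M, a mutation of chondroblastoma, blocks the enzymes that place it. The study asked how the distribution of Ring1b differs between cells with either form of H3.3.

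The deposited values behave as reads per 1000000 reads (RPM) in a region and are not divided by width, so density is given here as RPM per kb. Broad domains had a median width of 11700 bp (quartiles 9600 and 15400 bp), 108 were wider than 20 kb, and the widest spanned 131600 bp. Together they covered 16.2 Mb, 55.6% of the length of all regions up to 200000 bp, but held only 36.2% of the WT signal and 38.3% of the K36M signal. A domain rested on a median of 290 WT reads (73 to 2148) and 206.5 K36M reads (28 to 738). Change is the log2 of (K36M + 0.1) over (WT + 0.1), with both values in RPM.

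Broad domains were sparse. The median density was 0.776 RPM per kb in WT (quartiles 0.618 and 0.980, range 0.109 to 4.83) and 0.520 RPM per kb in K36M (quartiles 0.413 and 0.680, range 0.0865 to 1.92). The 5156 narrower regions had a median WT density of 2.45 RPM per kb and a median K36M density of 1.11. For scale, all reads spread evenly over the 2595 Mb up to the last region of each chromosome would give 0.385 RPM per kb. In WT, 23 domains (1.89%, against 0.534% of all regions) lay below that density, and in K36M 235 domains (19.4%, against 6.31%) did. A density above 1 RPM per kb was reached by 289 domains in WT and by 69 in K36M, and a density above 2 RPM per kb by 21 and 0 domains. Densities above 1.92 RPM per kb were thus reached in the WT library only. The rank order was partly shared (Spearman's rho 0.55 across 1214 domains of the same pair of libraries, a description in which domain width, base composition and background are shared).

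**Figure D1:**
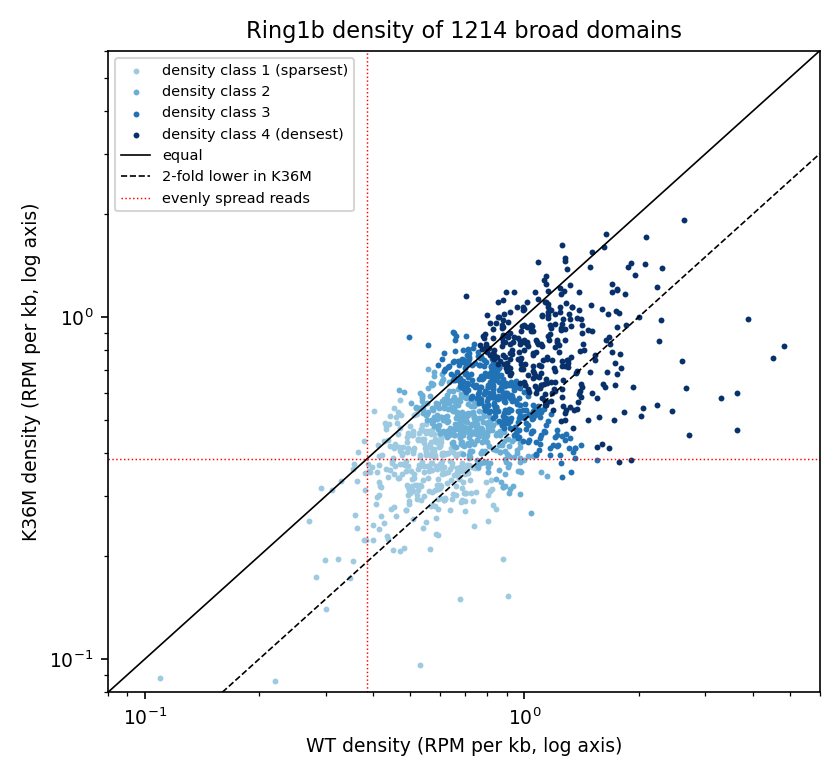
Density of each broad domain in the WT library (horizontal axis) and in the K36M library (vertical axis), both in RPM per kb on log axes, with 1 point per domain coloured by class of mean density. Most points lie below the line of equality, the densest WT domains spread farthest from it, and no K36M density exceeds 1.92 RPM per kb.

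Ring1b was lower in K36M at 1076 of the 1214 broad domains (88.6%, against 85.1% of all regions) and higher at 138. The share lower was similar in regions of 4200 to 8000 bp (88.9%) and smaller in those of 200 to 400 bp (77.0%). The median log2 ratio was -0.53 (quartiles -0.88 and -0.22), which is 30.7% lower, and that of all regions was -0.65. Set against the median of all regions, 724 domains (59.6%) lay above it and 489 (40.3%) below, with a median offset of 0.12. A level at least 1.5-fold lower was seen at 551 domains (45.4%, against 53.4% of all regions). A level at least 2-fold lower was seen at 227 domains (18.7%, against 33.5% of all regions), and one at least 4-fold lower at 15 (1.24%, against 8.26%). Only 2 domains were at least 1.5-fold higher (0.165%, against 1.22% of all regions), and 0 were at least 2-fold higher (0.314% of all regions). Summed over the domains, the WT signal came to 13046 RPM and the K36M signal to 8750 RPM, a ratio of 0.671 (counting interval 0.667 to 0.674). With the evenly spread reads taken off both libraries, the median log2 ratio was -1.43, but this sets 235 domains to 0 in K36M. By that step 61.5% of the domains were at least 2-fold lower, and the matching share of all regions is not given here. In the deposited values, large changes in either direction made up a smaller share of broad domains than of all regions.

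Counting error was smaller at these long regions than elsewhere. The 95% counting interval of the ratio lay below 1 at 876 domains (72.2%, against 65.1% of all regions), above 1 at 27 (2.22%, against 3.06%), and held 1 at 311. The exact binomial test with Benjamini-Hochberg adjustment over all regions, a comparison of 2 libraries only, called 862 domains lower and 24 higher. These were 71.0% and 1.98% of the domains, against 63.8% and 2.81% of all regions. The log2 ratios had a standard deviation of 0.51 over domains, while counting error alone would give 0.14. Whether this excess would be seen between repeat cultures was not tested, since there was 1 library for each form.

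Medians were similar on both sides of the width limit. Levels at least 4-fold lower were seen at exactly 8000 bp and not at exactly 8200 bp, but wider classes held them on both sides. They made up 5 of the 384 domains of 8200 to 10000 bp (1.30%) and 44 of the 1427 regions of 4200 to 8000 bp (3.08%). The 39 domains of exactly 8200 bp, just inside, had median densities of 0.940 RPM per kb in WT against 0.626 in K36M and a median log2 ratio of -0.61. The 52 regions of 8000 bp, just outside, had 0.898 and 0.584 RPM per kb and a median log2 ratio of -0.56. The summed ratio was 0.655 (interval 0.635 to 0.676) inside and 0.571 (interval 0.556 to 0.587) outside, the standard deviation of the log2 ratios was 0.57 and 0.75, and 0 of 39 and 5 of 52 were at least 4-fold lower. Within the broad domains, density decreased with width. The 384 domains of 8200 to 10000 bp had a median WT density of 0.897 RPM per kb and a median K36M density of 0.599, and for the 253 domains wider than 16000 bp these were 0.601 and 0.419. The median log2 ratio was -0.57 in the former class, -0.53 in the 261 domains above 10 and up to 12 kb, -0.53 in the 316 above 12 and up to 16 kb and -0.47 in the widest class. The share at least 2-fold lower was 21.9% in the narrowest and 12.6% in the widest of these classes. Of the widest class, 36.8% lay below the even density in K36M, against 9.64% of the narrowest of these classes. With evenly spread reads taken off, the order turned round, with a median difference between these 2 classes of -0.83 in place of 0.10. That step sets domains below the even density to 0 and is not a measured background, so no trend of change with width is stated.

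To compare dense and sparse domains, the 1214 were ordered by the mean density of both libraries on a log scale and cut into 4 equal classes. In the sparsest class (304 domains, median width 15.4 kb) the median density was 0.543 RPM per kb in WT against 0.359 in K36M, and the median log2 ratio was -0.61 (quartiles -0.90 and -0.30). In the densest class (303 domains, median width 10.2 kb) these densities were 1.16 and 0.822 RPM per kb, with a median log2 ratio of -0.45 (quartiles -0.90 and -0.14). The middle classes had medians of -0.53 and -0.50. The lower quartiles of the sparsest and the densest class were nearly equal, and the upper quartile was higher in the densest.

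The log2 ratios were more spread out in the densest class, with a standard deviation of 0.62 against 0.44 in the sparsest, although counting error alone would give less there (0.12 against 0.15). The densest class held more domains at both ends than the sparsest. Levels within 1.2-fold of equal were found at 97 of its domains (32.0%) and at 64 of the sparsest class (21.1%). Log2 ratios at or below -1.5 were found at 23 (7.59%) and 8 (2.63%). The shares of all regions past these limits are not given here. Counting intervals above 1 were found at 12 (3.96%) and 2 (0.658%), against 3.06% of all regions. At least 2-fold lower levels were about as frequent in both classes, at 20.1% and 17.4%, and less frequent than in all regions (33.5%). Within each width class the densest class again had the larger standard deviation, 0.62 against 0.48 in domains of 8200 to 10000 bp and 0.66 against 0.41 in those wider than 16000 bp.

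These contrasts depended on the density used. By WT density alone, the densest class had the lower median, by 0.49 on the log2 scale, and by K36M density alone it had the higher one, by 0.65. A ratio and a class that use the same library are tied to each other, so no trend of change with density is stated. The standard deviation in the densest class was 1.41 times that of the sparsest by mean density, 1.51 times by WT density and 0.986 times by K36M density, so the wider spread was not seen in classes of K36M density. Of the sparsest class, 64.8% lay below the even density in K36M, against 0.660% of the densest, and with evenly spread reads taken off, the standard deviation of the densest class was 0.574 times that of the sparsest. The wider spread of dense domains was thus seen in classes of mean or WT density of the deposited values, and not in classes of K36M density. Taking off evenly spread reads sets domains below the even density to 0, so the value of 0.574 rests on the pseudocount. It cannot show which class was more spread out.

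**Figure D2:**
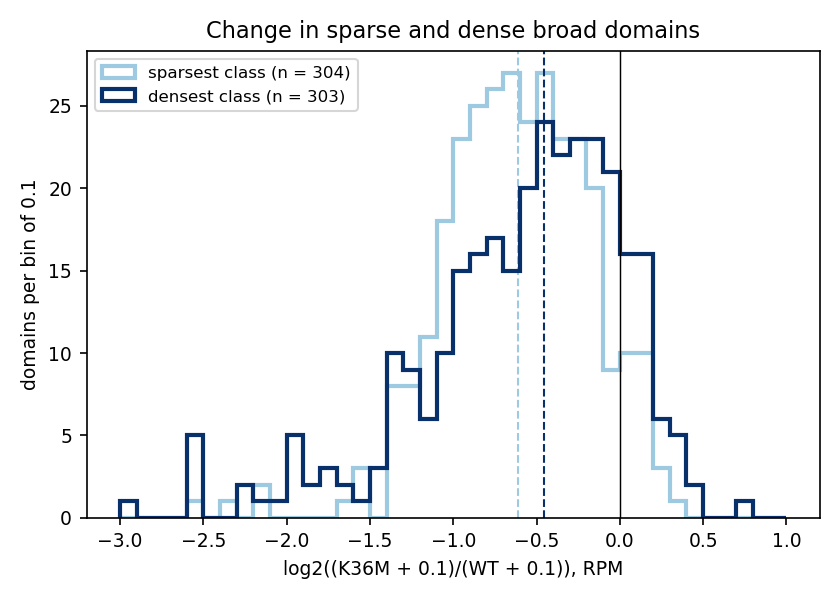
Number of broad domains per bin of 0.1 in log2 ratio (K36M over WT, pseudocount 0.1 RPM) for the sparsest and the densest class by mean density, with dashed lines at the medians of -0.61 and -0.45. The densest class reaches farther on both sides, down to -2.94 and up to 0.71.

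The 6 domains with the highest WT density were all at least 3.91-fold lower in K36M. The densest, on chromosome 1 at 14293801 to 14304600, held 4.83 RPM per kb in WT against 0.822 in K36M from 1557 and 280 reads, which is 5.88-fold lower (interval 5.17 to 6.70). The domain on chromosome 2 at 110017401 to 110028800 kept the most, with 3.87 RPM per kb in WT against 0.990 in K36M, 3.91-fold lower. On chromosome 12, 73997201 to 74010800 held 3.64 and 0.466 RPM per kb, the lowest log2 ratio of all broad domains (-2.94, 7.80-fold lower, interval 6.72 to 9.09). It ranked 4 in WT density and 753 in K36M density among the 1214. On chromosome 1, 157584801 to 157596800 held 3.63 and 0.600 RPM per kb, 6.06-fold lower. The domain on chromosome 14 at 122877201 to 122899000 was the widest of the 6, at 21.8 kb, with 72.0 against 12.6 RPM over its whole length (5.70-fold lower). All 21 domains above 2 RPM per kb in WT, a limit chosen after the values were seen, were lower in K36M, with log2 ratios from -2.94 to -0.28 and a median of -1.96. Selection on the WT value favours low ratios to an unknown extent, so these values are a description.

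Domains of similar WT density could differ widely in K36M. The domain on chromosome 18 at 52686601 to 52696800, with 2.64 RPM per kb in WT, stood at 1.92 in K36M (1.37-fold lower, interval 1.23 to 1.53), the highest K36M density of all broad domains. The domain on chromosome 6 at 51131601 to 51149400, with a similar 2.72 RPM per kb in WT, stood at 0.452 in K36M (6.01-fold lower, interval 5.26 to 6.90). The next highest K36M densities were 1.75 RPM per kb on chromosome 17 at 84929001 to 84937600, against 1.64 in WT, and 1.71 on chromosome 16 at 45885401 to 45893800, against 2.09 in WT. The interval of the ratio held 1 on chromosome 17 (0.932 to 1.22) and lay below 1 on chromosome 16 (0.721 to 0.931). These 3 were named after their values were seen.

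A pair of neighbours among the 8 lowest log2 ratios differed widely in WT density. On chromosome 2 a dense and a sparse domain lay 600 bp apart. The dense one, 94014601 to 94023600, held 4.52 RPM per kb in WT against 0.757 in K36M, 5.97-fold lower (interval 5.16 to 6.93). The sparse one, 94024201 to 94033400, held 0.532 and 0.0965 RPM per kb from 146 and 28 reads, which is 5.51-fold lower (interval 3.66 to 8.58). Their WT densities were far apart and the intervals of their folds overlap. On chromosome 14, 71520601 to 71533200 held 0.907 RPM per kb in WT against 0.153 in K36M, 5.91-fold lower (interval 4.49 to 7.89). Its WT density ranked 386 among the 1214, above the median, and its K36M value placed it in the sparsest class of mean density. All 3 were named for their low ratios, so they do not show how often sparse domains are reduced this far.

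The 8 highest log2 ratios were modest and came from domains of 0.496 to 1.08 RPM per kb in WT. The highest, on chromosome 11 at 73122601 to 73132400, held 0.496 RPM per kb in WT against 0.877 in K36M (145 and 271 reads), a ratio of 1.77 (interval 1.44 to 2.18). On chromosome 5, 91181001 to 91193800 held 0.701 and 1.15 RPM per kb, a ratio of 1.64 (interval 1.41 to 1.91). The remaining 6 had ratios from 1.32 to 1.48, each with an interval above 1. They lay on chromosomes 11, 9, 6 (far apart, starting at 34740201 and 88869401), 1 and 10. The densest of them in WT, on chromosome 6 at 88869401 to 88879200, held 1.08 and 1.45 RPM per kb (ratio 1.34, interval 1.16 to 1.55). All 8 were named for their high ratios, which favours intervals above 1, so these values are a description. The 27 domains with an interval above 1 lay on 12 chromosomes, with 5 on chromosome 6 and at most 3 on any other.

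The 6 widest domains had WT densities below the median of all broad domains, and their ratios lay between 0.653 and 0.954. The widest, 131.6 kb on chromosome 6 at 47600401 to 47732000, held 0.109 RPM per kb in WT against 0.0884 in K36M, the lowest WT density of all 1214 and below the even density in both libraries. Its ratio was 0.808 (interval 0.701 to 0.931). The next, 57.8 kb on chromosome 17 at 13748401 to 13806200, held 0.299 and 0.195 RPM per kb (ratio 0.653). Those on chromosome 11 at 64696001 (41.6 kb), chromosome X at 11371001 (39.6 kb) and chromosome 5 at 81522601 (39.2 kb) held 0.432 to 0.456 RPM per kb in WT, with ratios of 0.830, 0.861 and 0.803. The sixth, 38.6 kb on chromosome 14 at 23621001 to 23659600, was the densest of them, with 0.635 and 0.606 RPM per kb, and the interval of its ratio held 1 (0.860 to 1.06). Besides the 2 widest and the sparse domain on chromosome 2, the 6 lowest mean densities included 106360001 to 106379800 on chromosome 14, with 0.220 RPM per kb in WT against 0.0865 in K36M (ratio 0.393, interval 0.281 to 0.544). The others were 120076401 to 120085200 on chromosome 6 (0.301 and 0.140 RPM per kb) and 36087801 to 36102000 on chromosome 1 (0.283 and 0.174).

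Broad domains were found on all 19 autosomes and on chromosome X. There were 15 on chromosome X, 0.918 per 10 Mb, against 3.96 (chromosome 2) to 6.73 (chromosome 11) per 10 Mb on the autosomes. Regions of any width were few on chromosome X (74), and 20.3% of them were broad, near the 19.1% of all regions. Along the chromosomes, counted from the end with the lowest coordinates, 4 equal parts held 18.7%, 24.9%, 25.8% and 30.6% of the domains. The narrower regions were divided differently, with 29.3%, 22.2%, 22.1% and 26.3%. Change varied little with this position, with median log2 ratios of -0.51, -0.53, -0.50 and -0.56 from the first to the last part, and WT densities of 0.787, 0.770, 0.801 and 0.759 RPM per kb.

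**Figure D3:**
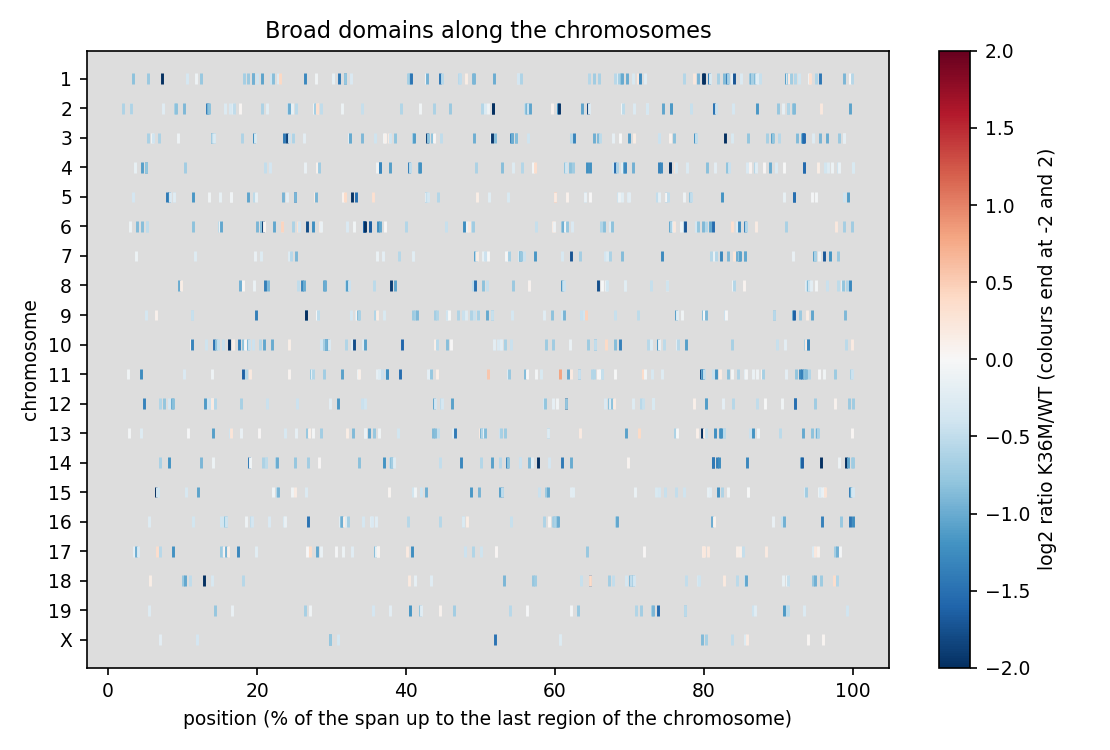
Each broad domain as a tick at its midpoint, as a percentage of the span up to the last region of its chromosome (horizontal axis), on 20 chromosomes (vertical axis), coloured by log2 ratio from blue (lower in K36M) to red (higher). Blue ticks outnumber red ones on every chromosome, least so on chromosome 17, chromosome X has 15 ticks, and the first part of the chromosomes is thinly covered.

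The median log2 ratio of broad domains was below 0 on all 20 chromosomes, from -0.78 on chromosome 14 to -0.15 on chromosome 17. On chromosome 14, 49 of 51 domains were lower (96.1%, against 85.1% of all regions). At least 2-fold lower were 19 (37.3%, against 18.7% of all broad domains and 33.5% of all regions). The narrower regions of chromosome 14 also had the lowest median of any chromosome, at -1.16. On chromosome 17, 29 of 48 were lower (60.4%) and 4 (8.33%) at least 2-fold lower, with a median density of 0.844 RPM per kb in WT against 0.689 in K36M. The 17 domains of chromosome 17 from 50 Mb on, a split chosen after the values were seen, had a median log2 ratio of 0.09 and the 31 before it -0.23. The narrower regions of chromosome 17 stood at -0.63, or -0.71 without its dense runs (10 or more regions in a row, each within 2000 bp of the next). Chromosome 15 also showed a wide gap between its 51 domains (-0.36) and its narrower regions (-0.90). Outside dense runs, broad domains had a higher median than narrower regions on each of the 20 chromosomes, and with the runs on 17. The exceptions with the runs were chromosomes 5, 8 and 11. Only 1 broad domain lay in a dense run.

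**Figure D4:**
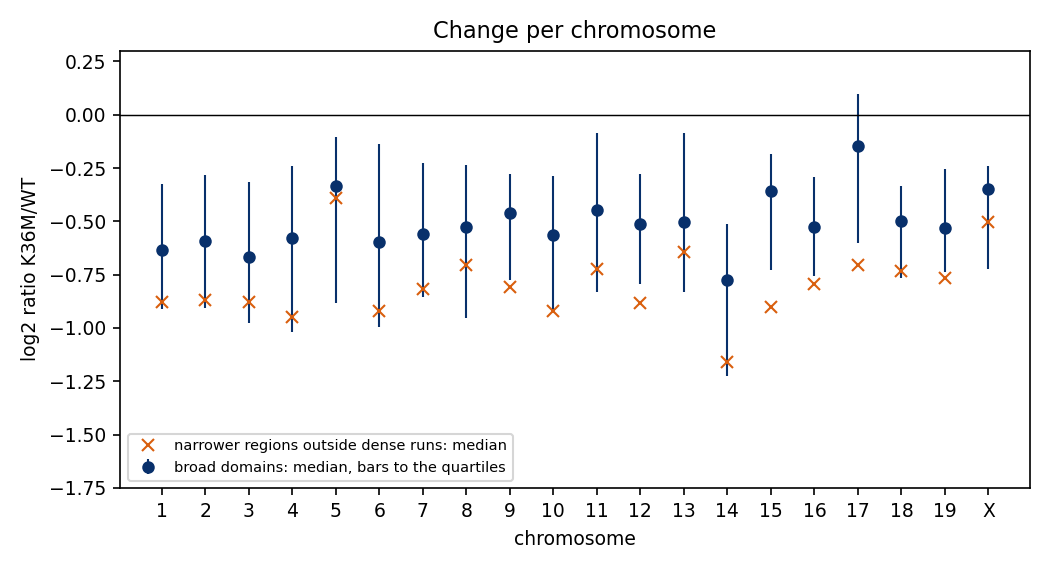
Median log2 ratio of the broad domains of each chromosome (points, bars to the quartiles) and of its narrower regions outside dense runs (crosses). Points lie above the crosses throughout, chromosome 14 is lowest for both at -0.78 and -1.16, and chromosome 17 is highest for domains at -0.15.

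The same difference was seen locally. Of the 1214 domains, 548 had at least 1 narrower region within 50 kb. At 405 of them (73.9%) the log2 ratio was higher than that of the summed narrower regions nearby, and the median difference was 0.32 (quartiles -0.02 and 0.72). The domains were sparser than these neighbours in WT at 494 of 548 places (90.1%), with medians of 0.860 and 1.84 RPM per kb, and in K36M the medians were 0.557 and 0.890 RPM per kb. Density thus moved together with width in this comparison, and its part in the difference was not tested.

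Broad domains were seldom directly adjacent to other regions. Only 107 (8.81%) touched another region, against 45.2% of the narrower regions, and 0 touched another broad domain. The 107 had a median log2 ratio of -0.71, against -0.52 for the other 1107, and the shares at least 2-fold lower were 32.7% and 17.3%. The touching domains thus stood near all regions, of which 33.5% were at least 2-fold lower, with a median log2 ratio of -0.65. Their median density was 0.859 RPM per kb in WT, against 0.767, and 0.534 in K36M, against 0.519. The median gap to the nearest broad domain was 295.1 kb (quartiles 78.4 and 975.2 kb). Another broad domain lay within 50 kb of 217 domains (17.9%), and none within 1000 kb of 293.

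Broad domains up to 50 kb apart differed less in their change than domains farther apart. The absolute difference in log2 ratio between a domain and the next had a median of 0.22 for the 40 pairs with gaps up to 10 kb, 0.26 for gaps up to 50 kb (76 pairs), 0.34 up to 200 kb (165 pairs), 0.42 up to 1000 kb (344 pairs) and 0.47 beyond (569 pairs). All pairs on the same chromosome had a median of 0.45. Among the 40 nearest pairs, both domains were at least 2-fold lower in 7 and 1 of the pair in 7 others. These counts were 6 and 12 of the 76 pairs up to 50 kb and 10 and 46 of the 165 up to 200 kb. They were 17 and 79 of the 344 pairs up to 1000 kb and 19 and 185 of the 569 beyond. Domains of a pair share the libraries and the local background, and a single broad site split into 2 regions counts as a pair here.

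**Figure D5:**
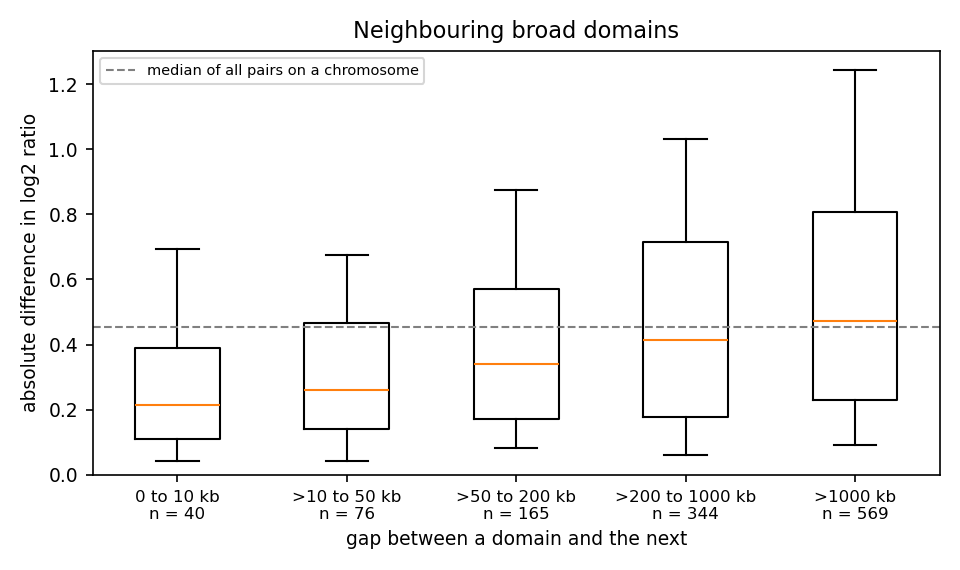
Absolute difference in log2 ratio between each broad domain and the next on its chromosome, by the gap between them (boxes at the quartiles with the median, whiskers at the 10th and 90th percentiles). The median increases from 0.22 for gaps up to 10 kb to 0.47 beyond 1000 kb, where it lies near the 0.45 of all pairs (dashed line).

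Domains were also grouped. Of 796 windows of 1 Mb that held a broad domain, 83 held 3 or more, with 293 domains (24.1%). In 65 of the 83 (78.3%) every domain was lower in K36M, in 17 both directions occurred and in 1 no domain was lower. Of all broad domains, grouped or not, 88.6% were lower. After centring on the median domain, every domain was lower in 19.3% of the 83 windows. The count of 65 thus depends on the overall shift and does not by itself show that change is grouped. Windows in which every domain was at least 2-fold lower numbered 1. Within a window the log2 ratios spanned a median of 0.62.

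The most domains in a window was 6, reached by 4 windows, of which the 3 with the longest covered length are described first. On chromosome 13, 60 to 61 Mb, all 6 domains were lower, with log2 ratios from -0.93 to -0.15 and a summed ratio of 0.667 (interval 0.625 to 0.712). The domain of highest WT density there, 60391801 to 60400000, held 1.60 RPM per kb against 1.06 in K36M, while 60527401 to 60541800 held 1.11 and 1.00, with an interval of the ratio that held 1 (0.792 to 1.03). On chromosome 7, 71 to 72 Mb, 5 of 6 domains were lower, and the summed level was 1.44-fold lower (interval 1.34 to 1.55). The strongest reduction there, 2.16-fold at 71099201 to 71111000, lay 8.2 kb from a domain that was 1.32-fold lower. On chromosome 9, 41 to 42 Mb, 3 domains were lower and 3 higher. The 3 higher ones, between 41285001 and 41402600, had ratios of 1.19, 1.26 and 1.05, and the interval of the last held 1. Farther along, 41611801 to 41620600 was the densest of the window in WT at 1.31 RPM per kb and had 0.713 in K36M, 1.83-fold lower (interval 1.53 to 2.19). The fourth window, on chromosome 10 at 37 to 38 Mb, had all 6 domains lower, with log2 ratios from -1.13 to -0.67, and was 1.89-fold lower in sum. Windows of equal domain number thus ranged from uniform reduction to a mixture of directions.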

How the data were processed

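The submitters' processing notes name Bowtie 1.0.0 and build mm9. What called the peaks, and how reads were counted, is not given in the sources used here. In all, the authors deposited 1 table of regions with a value for each of 2 Ring1b libraries, headed RPKM. The deposited values are treated as RPM, since all are whole multiples of 0.0335 (WT) or 0.0317 (K36M) within 0.01 reads, whatever the width. Exactly that scale would imply about 29850746 and 31545741 reads, with only the first 3 digits informative. Dividing by these steps gave reads, used for exact (Clopper-Pearson) 95% intervals of the ratio, conditional on the total reads, and for the binomial test at an adjusted 0.05. Without molecular identifiers, reads cannot count as independent molecules. Starts are printed counted from 1.

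Named domains were the 6 of highest WT density, the 6 widest, the 8 lowest and 8 highest log2 ratios, the 6 of lowest mean density and the 3 windows with the most domains. Members, lists and rules were chosen with earlier results of these data known. The table names no genes and the gene table used here is on another build, so no gene is named. Python 3.11.15, numpy 2.4.6, pandas 2.3.3 and scipy 1.17.1 were used.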

Additional observations from a re-analysis of the deposited data

How the results depend on the processing

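The direction of the median change over broad domains, -0.53, held under all alternatives but one. It was -0.48 with a pseudocount of 1, -0.47 with a minimum width of 16000 bp and -1.43 when evenly spread reads were taken off both libraries. Centring on the median of all regions turned it to 0.12. Under these 4 settings, in that order, the share at least 1.5-fold lower, 45.4% as reported, was 39.5%, 39.3%, 72.0% and 9.88%, and the share at least 2-fold lower, 18.7% as reported, was 13.0%, 12.4%, 61.5% and 2.97%. Merging regions within 2000 bp first gave 22.0% at least 2-fold lower. Taking off evenly spread reads sets 235 domains to 0 in K36M, so its values rest on the pseudocount; it is not a measured background.

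The difference in median between the densest and the sparsest class, 0.16, became -0.49 by WT density, 0.65 by K36M density and 3.09 with evenly spread reads taken off. The ratio of their standard deviations, 1.41, became 0.986 by K36M density and 0.574 with evenly spread reads taken off. The ratio of their interquartile ranges, 1.29, became 1.48, 0.953 and 0.368 under the same 3 settings. The widest class lay 0.10 above the class of 8200 to 10000 bp, and -0.83 from it with evenly spread reads taken off. All domains were lower in 78.3% of windows with 3 or more, and in 19.3% after centring on the median domain. The other 21 of 44 values stayed within a sampling range of the reported value or within 1.5 times. That range treats the domains or windows of the same pair of libraries as independent draws. It is therefore not a range of counting error in reads, and it does not cover differences between cultures. Leaving out domains below the even density in WT and counting by interval were chosen after the data were seen. No paired analysis was possible because each group had 1 library, and no library could be left out.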
